A study of Saccharomyces cerevisiae with 30 samples.

Results

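Most of the 10 genes described here build and remodel the glucan, chitin and mannan of the yeast cell wall. SVS1 and SRL1 code for wall proteins. The genes were chosen by locus tag, as FKS1, GSC2, GAS1, CRH1, UTR2, CHS1, CHS3, SVS1, SRL1 and MNN1. All 10 were found among the 7127 features of the TPM table. Transcript levels were measured by RNA-seq in Saccharomyces cerevisiae, with 1 culture of the BF264-15D strain (MATa bar1) grown in YEP dextrose medium at 38.5°C. The culture was held in G1 with the mating pheromone alpha-factor (40 ng/ml) for 150 min and released, and 1 library was made every 10 min from 0 to 290 min. The temperature is a mild heat stress for yeast. All 30 samples share the strain, the temperature and the pheromone arrest, and no culture at another temperature and no unarrested culture was analysed here.

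Each time point has 1 library, so no replicate error can be given and no p-value is given. A value is set instead against the neighboring time points and against the 5137 features whose mean over time reached 10 TPM or more, which include all 10 genes. TPM are levels per transcript length, scaled so that each library sums to 1000000. The read depth behind a value is therefore unknown. The a-cell markers STE2, STE6 and AGA2 were present at every time point, with medians of 240.4, 52.3 and 532.6 TPM, whereas the alpha-cell markers STE3 and MF(ALPHA)1 had medians of 5.27 and 2.30 TPM, and SAG1 and MF(ALPHA)2 of 17.3 and 17.01 TPM. The a-factor genes were irregular, since MFA1 was listed at 0 TPM at 28 time points and MFA2 at 5. BAR1, the gene mutated in the strain, was listed at 0 TPM at all 30. The features as a whole also shifted between time points. Relative to each feature's own median, the median log2 difference was -0.38, -0.43 and -0.13 in the libraries of 0, 10 and 20 min. It was 0.18, 0.12 and 0.12 at 50, 60 and 80 min, and -0.15 at 270 min. In the libraries of 100, 140 and 150 min it was 0.18, 0.13 and 0.20. These last time points are treated here as STRIPEs, the study's term for libraries in which most genes deviate from the neighboring time points. Values after division by a median-of-ratios factor, which takes out the shift shared by most features, are called scaled below, and the part of the shift in any single result was not tested.

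The yeast wall is a mesh of beta-1,3-glucan, to which beta-1,6-glucan, chitin and mannoproteins are linked. A bud can grow only while new glucan is made and old glucan is cut and rejoined, so that much of the wall machinery is transcribed around bud emergence in late G1. There the factor SBF binds the Swi4/6 cell cycle box (SCB, CACGAAA) and the related factor MBF binds the MluI cell cycle box (MCB, ACGCGT). Chitin is laid down in a ring at the bud neck, in the septum and, after separation, at the scar. Mating pheromone acts through Ste12, which binds the pheromone response element (PRE, TGAAACA).

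The region before the coding start is shown for 7 of the genes, whose profiles differ in time. FKS1, UTR2 and CHS3 are not shown, so the MCB matches of FKS1 and CHS3 are not displayed. The MCB of CRH1, at 419 to 414 bases before the coding start, lies outside its stretch and is not displayed either. In each stretch of 90 bases, capitals mark matches to an SCB with any second base (CNCGAAA) on either strand. In CHS1, which holds none, they mark the PRE. Each sequence reads 5′ to 3′ on the strand of the gene and comes from the RefSeq R64 assembly, the build that the submitters' processing notes name.
SVS1 chrXVI:242872-242961 (minus strand): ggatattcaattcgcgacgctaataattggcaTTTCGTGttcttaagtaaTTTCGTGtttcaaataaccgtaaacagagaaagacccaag
MNN1 chrV:152982-153071 (plus strand): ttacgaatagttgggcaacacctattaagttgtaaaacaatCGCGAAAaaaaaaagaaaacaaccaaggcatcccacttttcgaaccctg
CRH1 chrVII:878454-878543 (minus strand): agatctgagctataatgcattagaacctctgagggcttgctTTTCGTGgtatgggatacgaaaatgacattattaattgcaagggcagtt
SRL1 chrXV:797076-797165 (plus strand): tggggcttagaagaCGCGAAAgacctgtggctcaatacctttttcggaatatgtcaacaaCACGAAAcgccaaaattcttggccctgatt
GAS1 chrXIII:886626-886715 (plus strand): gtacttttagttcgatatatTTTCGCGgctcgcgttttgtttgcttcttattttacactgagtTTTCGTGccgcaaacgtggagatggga
GSC2 chrVII:547807-547896 (plus strand): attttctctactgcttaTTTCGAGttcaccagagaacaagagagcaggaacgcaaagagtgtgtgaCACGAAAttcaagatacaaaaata
CHS1 chrXIV:276120-276209 (plus strand): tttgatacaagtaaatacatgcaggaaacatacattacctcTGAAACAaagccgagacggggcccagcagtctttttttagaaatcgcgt
The SVS1 stretch holds a pair of exact SCBs, at 229 to 223 and 211 to 205 bases before the coding start, and the second of them overlaps a PRE that lies at 206 to 200 bases. The exact SCB lies at 310 to 304 bases in CRH1, 540 to 534 in SRL1, 314 to 308 in GAS1 and 391 to 385 in GSC2.

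Over the 600 bases before the coding start, an exact SCB on either strand was found in 5 of the 10 genes, namely GSC2, GAS1, CRH1, SVS1 and SRL1. The same letters occurred in 8.33% of 5999 such windows before yeast coding genes. With any second base, 9 of the 10 genes and 24.7% of all windows held a match, and CHS1 was the gene without one. An MCB was found for FKS1, CRH1 and CHS3 (3 of 10, against 6.33% of all windows), and a PRE for CRH1, UTR2, CHS1, CHS3, SVS1 and SRL1 (6 of 10, against 14.6%). These counts depend on the window, since within 300 bases an exact SCB was left in SVS1 alone (1 of 10, against 4.50%). A match is a description of the letters and says nothing of a bound factor. The windows of GAS1, CHS1 and SVS1 reach into the neighboring genes FKS3, YNL193W and YPL162C.

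**Figure D1:**
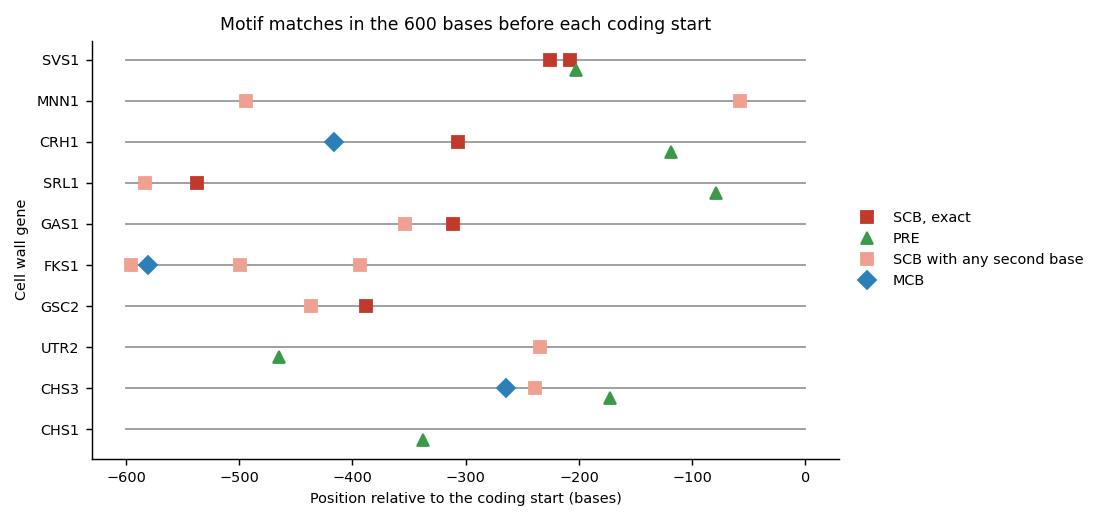
Position of motif matches on either strand in the 600 bases before the coding start of each gene, with distance in bases on the horizontal axis and 1 line per gene. Squares mark SCBs (dark where exact, pale with any other second base), diamonds MCBs and triangles PREs, and SVS1 shows its exact SCBs at 229 and 211 bases with a PRE beside them.

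SVS1, MNN1, CRH1, SRL1 and GAS1 were low in arrest and high soon after release. All 5 had their lowest level in TPM at 0 min, while the cells were still in arrest (290 min for CRH1 after scaling), and were at least 2-fold higher at 20 min. SVS1 (YPL163C, chrXVI:241918-242700, minus strand) codes for a wall and vacuolar protein needed for normal resistance to vanadate. Its level was 37.9 TPM (0 min), 183.6 TPM (10 min), 281.0 TPM (20 min), 214.3 TPM (30 min) and 152.0 TPM (40 min). It was lowest after that peak at 290 min, with 79.4 TPM, and had a median of 98.3 TPM. The level at 20 min was thus 7.42-fold that at 0 min, which exceeded the ratio of 99.4% of the features.

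MNN1 (YER001W, chrV:153520-155808, plus strand) codes for the mannosyltransferase that adds terminal alpha-1,3-linked mannose to wall glycoproteins in the Golgi. It had 10.2 TPM (0 min), 31.2 TPM (10 min), 38.6 TPM (20 min) and its highest level, 44.1 TPM, at 30 min. By 90 min it had 18.5 TPM, the lowest level after release, and in the next cycle it reached 33.6 TPM at 120 min and 38.4 TPM at 150 min. From 160 to 290 min it kept between 23.6 and 30.0 TPM.

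SRL1 (YOR247W, chrXV:797676-798308, plus strand) is the paralog of SVS1 and codes for a wall mannoprotein. It was the most abundant of the 10 genes, with a mean of 965.5 TPM, above 96.0% of the features. Its level was 355.5 TPM (0 min), 815.6 TPM (10 min) and 1151 TPM (20 min), and 1068 TPM was still present at 50 min. It was down to 695.1 TPM (80 min) and returned to 1140 TPM (160 min) and 1141 TPM (270 min). SRL1 and SVS1 therefore had different late profiles. At 270 min SRL1 stood at 98.2% of its highest level and SVS1 at 32.8%, and the SVS1 share of their summed TPM was 19.6% at 20 min and 7.44% at 260 min.

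GAS1 (YMR307W, chrXIII:887003-888682, plus strand) codes for the GPI-anchored glucanosyltransferase that cuts and elongates beta-1,3-glucan chains. It had 303.8 TPM (0 min), 543.1 TPM (10 min), 756.7 TPM (20 min) and 835.1 TPM (40 min), and then 521.9 TPM (90 min). CRH1 (YGR189C, chrVII:876669-878192, minus strand) codes for a transglycosylase that links chitin to glucan. It had 295.7 TPM (0 min), 402.0 TPM (10 min), 668.9 TPM (20 min) and 736.0 TPM (30 min), and 422.8 TPM (60 min). Its level at 120 min was 514.3 TPM and that at 290 min 318.6 TPM. CRH1 was thus close to its arrest level again at the end of the series, whereas GAS1 had 601.2 TPM at 290 min.

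Across the 10 genes, 5 were at least 2-fold higher at 20 min than at 0 min, a pair of time points chosen after the results were seen. Among all features 8.76% were. At 10 min, 3 of the 10 genes had already reached this ratio over 0 min, namely SVS1, SRL1 and MNN1, against 3.45% of the features. No gene of the 10 was 2-fold lower at either time point, against 3.02% of the features at 10 min and 2.34% at 20 min. The median log2 ratio of 20 over 0 min was 0.21 for all features. It was 2.89 for SVS1, 1.92 for MNN1, 1.69 for SRL1, 1.32 for GAS1 and 1.18 for CRH1. After scaling, 4 of the 10 genes remained past 2-fold, with CRH1 at a log2 ratio of 0.93. The median log2 ratio of all features was then -0.04, and their share past 2-fold was not computed on the scaled values. The study's detector function flagged the libraries of 0, 10 and 20 min. All of the ratios given here rest on the single library at 0 min. Without it, the highest over the lowest level was 3.54-fold for SVS1, 2.39-fold for MNN1, 2.31-fold for CRH1, 1.67-fold for SRL1 and 1.60-fold for GAS1, against 7.42-fold, 4.33-fold, 2.49-fold, 3.27-fold and 2.75-fold with it.

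**Figure D2:**
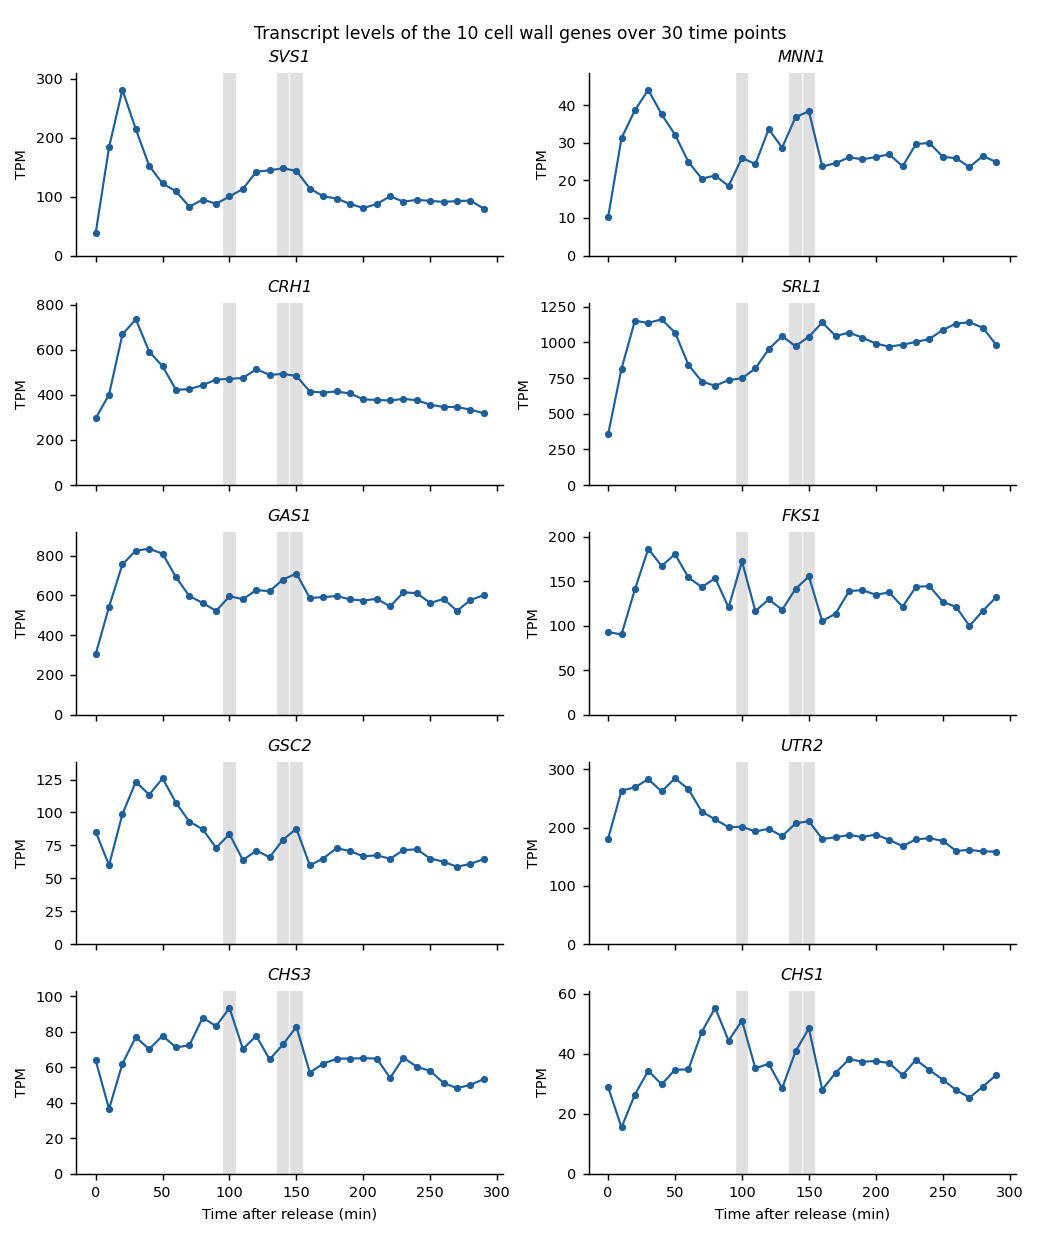
Transcript level of each gene in TPM (vertical axis, from 0) over time after release in min (horizontal axis), with 1 point per library and grey bands at 100, 140 and 150 min. SVS1 peaks at 281.0 TPM at 20 min and CHS1 at 55.4 TPM at 80 min, and FKS1, CHS1 and CHS3 spike inside the grey bands whereas SRL1 does not.

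The glucan synthase genes FKS1 and GSC2 were below or near their 0 min level at 10 min. FKS1 (YLR342W, chrXII:809997-815627, plus strand) and GSC2 (YGR032W, chrVII:548264-553951, plus strand, also known as FKS2) code for alternative catalytic subunits of the beta-1,3-glucan synthase in the plasma membrane. FKS1 had 92.7 TPM (0 min), 90.0 TPM (10 min), 140.6 TPM (20 min) and its highest level, 186.3 TPM, at 30 min. GSC2 had 85.4 TPM (0 min), 59.9 TPM (10 min), 123.3 TPM (30 min) and 125.9 TPM (50 min). In TPM both were thus at their low at 10 min or close to it, but after scaling both were lowest at 160 min. After scaling, GSC2 was highest at 30 min instead of 50 min. GSC2 was at 64.4 TPM at 290 min and FKS1 at 132.0 TPM.

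The mix of the synthase subunits shifted toward FKS1. In summed TPM of FKS1 and GSC2, the GSC2 share was 48.0% (0 min), 40.0% (10 min), 41.1% (60 min) and 32.7% (100 min), and from 110 min on it lay between 32.8% and 37.1%. FKS1 was the more abundant gene at every time point. The coding sequences of the pair are 80.8% identical over 5606 aligned bases. Their longest identical run is 38 bases and they share 0 stretches of 50 bases, so a fragment of that length that matches without error could be told apart. How the authors' quantification split shorter matches was not tested, and the sequences are those of the R64 reference, not of the strain used.

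UTR2 (YEL040W, chrV:78053-79456, plus strand) codes for the other transglycosylase of the CRH1 family. It had 181.0 TPM (0 min), 263.5 TPM (10 min), 283.1 TPM (30 min) and 284.6 TPM (50 min), and then 227.4 TPM (70 min), 200.7 TPM (90 min) and 158.9 TPM (290 min), its lowest level. In TPM it had the narrowest range of the 10 genes, 1.79-fold. This rank depends on the scale, since the scaled range was 2.16-fold for UTR2 and narrowest for FKS1, 1.57-fold. Of the summed TPM of CRH1 and UTR2, CRH1 held 60.4% (10 min), 72.2% (30 min), 61.4% (60 min) and 72.5% (130 min). This share thus went up, down and up again within the first 130 min while both genes were detected. After scaling, the highest level of UTR2 was at 10 min instead of 50 min.

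**Figure D3:**
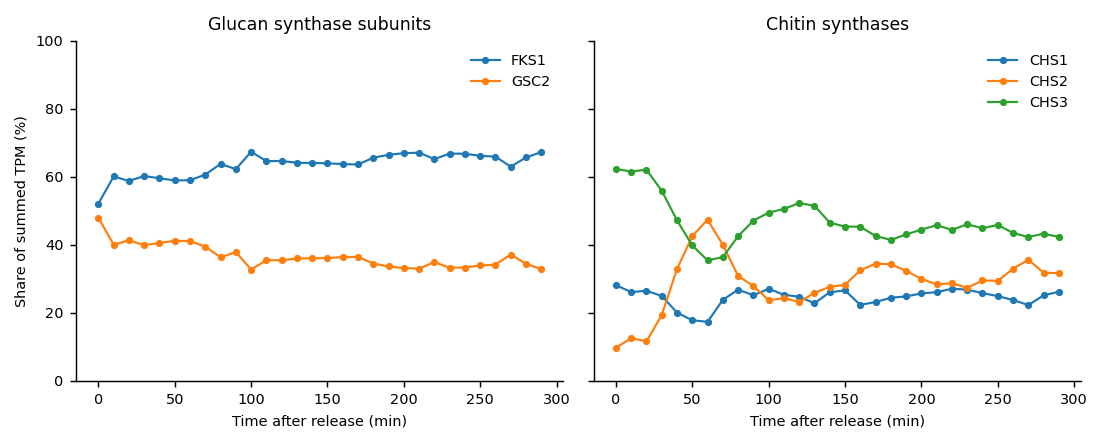
Share of each gene in the summed TPM of its family in percent (vertical axis) over time after release in min (horizontal axis), for FKS1 and GSC2 on the left and the chitin synthases CHS1, CHS2 and CHS3 on the right. GSC2 is at 48.0% at 0 min and 32.7% at 100 min, and CHS2 has its highest share, 47.3%, at 60 min.

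The chitin synthase genes had their highest TPM later than the other genes, CHS1 at 80 min and CHS3 at 100 min. This order depends on the scale, since scaled values were highest at 270 min for SRL1 and at 0 min for CHS3. CHS1 (YNL192W, chrXIV:276502-279897, plus strand) codes for the enzyme that repairs the wall after cell separation and is known to be induced by pheromone. It had 28.8 TPM (0 min), 15.4 TPM (10 min), 34.3 TPM (30 min), 34.8 TPM (60 min), 47.3 TPM (70 min) and its highest level, 55.4 TPM, at 80 min. It was 35.1 TPM (110 min), 28.5 TPM (130 min) and 25.3 TPM (270 min). CHS3 (YBR023C, chrII:284428-287925, minus strand) codes for the synthase of the bud neck ring and of most chitin in the lateral wall. It had 63.9 TPM (0 min), 36.4 TPM (10 min), 77.0 TPM (30 min), 88.0 TPM (80 min) and 93.5 TPM (100 min). Among the time points that are not STRIPEs, 80 min was the highest for both genes.

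CHS1 and CHS3 were also the genes with the lowest ratios after the first 10 min. Their ratios of 10 over 0 min were 0.53 for CHS1 and 0.57 for CHS3, lower than in all but 3.83% and 4.98% of the features, where the median ratio was 0.95. CHS1 kept its maximum at 80 min after scaling. CHS2, the synthase of the primary septum, is not one of the 10 genes. Its share of the summed TPM of the 3 synthases was 9.66% (0 min), 47.3% (60 min) and 23.1% (120 min), while CHS3 held 62.3% (0 min) and 35.4% (60 min).

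Landmark lists of genes known to be transcribed in a given phase place these profiles in the cycle. The mean Z-score of 10 G1/S genes, such as CLN2 and RNR1, was highest at 20 min and lowest between cycles at 70 and 160 min. These lows, taken in TPM, were used to divide the series into cycles. In TPM the G1/S maxima were at 20, 150 and 240 min, and 150 min is a STRIPE. After scaling they were at 10 and 120 min, with none in the third cycle. How far the boundary at 160 min and the third cycle depend on the shift between libraries was not tested. The 8 histone genes were highest at 30 min, 10 G2/M genes at 60 min and 9 M/G1 genes at 80 min. The 10 pheromone genes, such as FUS1, were highest at 0 min and had further maxima at 30, 100, 150 and 210 min. Of these, 100 and 150 min are STRIPEs, and after scaling the maxima were at 100 and 200 min. In TPM, SVS1 had its maximum at the time of the G1/S genes, MNN1, CRH1 and FKS1 at that of the histone genes and CHS1 at that of the M/G1 genes. After scaling, SVS1, MNN1 and CRH1 were all highest at 20 min, between the G1/S maximum at 10 min and the histone maximum at 30 min.

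Pearson correlations of log2(TPM + 1) with these lists over the 27 time points from 30 to 290 min describe the profiles further. They carry no p-value, since all time points come from 1 culture and share the shift between libraries. MNN1 was most like the G1/S list, with r = 0.90, above 99.9% of the features, and so was SVS1, with r = 0.77. SRL1 was most like the histone genes (r = 0.81), as was GAS1 (r = 0.68). CHS3 was most like the pheromone genes (r = 0.86, above 99.6% of the features), and CHS1 likewise (r = 0.75). The list named was the same under all 4 settings tried for 5 genes, MNN1, SVS1, SRL1, GAS1 and CHS3. For CHS1 it was the M/G1 list once 0, 10 and 20 min were included (r = 0.72), and for FKS1, GSC2, CRH1 and UTR2 it changed with the setting.

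**Figure D4:**
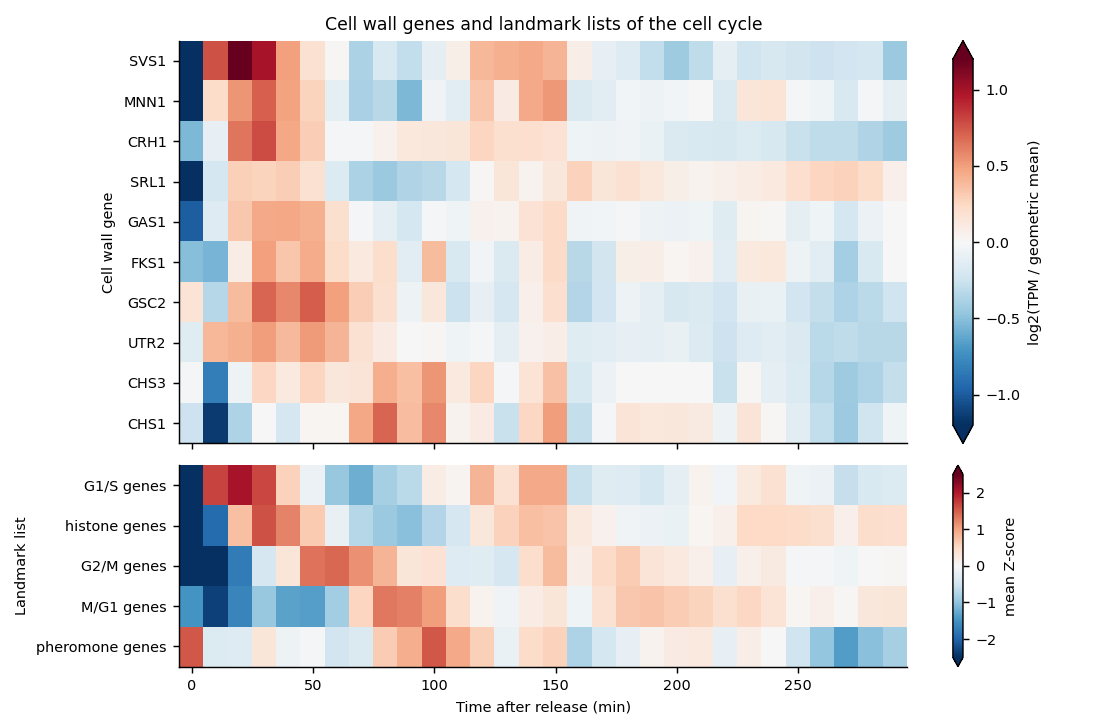
Upper panel, log2 TPM of each gene relative to its own geometric mean (color) over time after release in min (horizontal axis); lower panel, mean Z-score of the landmark lists at the same time points. Red is above and blue below the mean, and values beyond the ends of a color bar take its end color. The red block lies at 20 min for SVS1, 30 min for MNN1 and CRH1 and 80 min for CHS1.

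The similarity of the 10 genes to each other, over the same 27 time points, is given as a description with no p-value. GSC2 and UTR2 were the most alike pair, with r = 0.96, or 0.92 after scaling. FKS1 and GSC2 had r = 0.88, CRH1 and SVS1 0.85, CHS1 and CHS3 0.81, and SVS1 and MNN1 0.80. The most opposed pair was CHS1 and SRL1, with r = -0.76, or -0.84 after scaling, followed by CHS3 and SRL1 with r = -0.61. The paralogs SVS1 and SRL1 had r = 0.29.

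For each gene, the features with the most similar profile over all 30 time points were listed. MNN1 was closest to POL1, the catalytic subunit of DNA polymerase alpha (r = 0.94), followed by RTT107 and GIN4, which code for a DNA repair scaffold and a septin-linked kinase (r = 0.93 each). SRL1 was closest to HHO1, the linker histone (r = 0.95), followed by the core histone genes HHF2 and HHT2 (r = 0.91 each). POL1 is also in the G1/S list, and HHF2 and HHT2 are in the histone list. SVS1 was closest to the feature YEL034C-A (r = 0.97, but 0.81 after scaling), a locus tag not matched in the annotation used here, then HXK2, hexokinase 2 (r = 0.96), and YOX1, a repressor of M/G1 genes (r = 0.94). GAS1 was closest to PMI40, the mannose-6-phosphate isomerase that feeds mannosylation (r = 0.97), then ERG4 of ergosterol synthesis and YDR222W (r = 0.94 each). CRH1 was closest to URH1 (r = 0.90), APA1 and ERG4 (r = 0.89 each). UTR2 was closest to the amino acid permease gene GNP1 (r = 0.97), then the sodium pump gene ENA1 (r = 0.96) and ATO3 (r = 0.95). FKS1 was closest to SPF1 and LHS1, which code for an ATPase and a chaperone of the endoplasmic reticulum (r = 0.95 and 0.94), and to CLU1 (r = 0.93). GSC2 was closest to DLD3 (r = 0.95), ARB1 and the lysyl-tRNA synthetase gene KRS1 (r = 0.94 each). CHS1 was closest to GDH2, a glutamate dehydrogenase gene (r = 0.95), MSB3 (r = 0.93) and ASK10 (r = 0.92), and CHS3 to PTP2 and ATP22 (r = 0.95 each) and YNR065C (r = 0.94). All of these values include the libraries of 0 and 10 min, in which most features were low.

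Comparisons of time windows gave the size of the change from stage to stage. Calls were made at 2-fold with no overlap between the time points of the windows, and 0 of the 10 genes were called in any of the 4 comparisons. Among all features, 3.52% were called higher and 0.389% lower at 30 to 50 min against 0 to 20 min, 0.35% and 0.0195% at 60 to 80 min against 30 to 50 min, and 0.311% and 0.506% at 110 to 130 min against 60 to 80 min. In the last comparison no feature was called. At 30 to 50 min, FKS1 had a mean of 177.8 TPM, against 107.8 TPM at 0 to 20 min, a log2 ratio of 0.72. The corresponding value for all features was a median of 0.37. SVS1 had a mean of 162.8 TPM at 30 to 50 min and 167.5 TPM at 0 to 20 min, and its peak at 20 min lies in the earlier window. Without overlap, 5 of the 10 genes were higher at 30 to 50 min, near the 52.4% of all features, and 0 were lower, against 4.09%. After scaling 1 gene of 10 was higher, near the 13.7% of all features, and 0 were lower, against 19.9%.

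At 60 to 80 min most of the genes were lower. Of the 10 genes, 7 were lower at 60 to 80 min than at 30 to 50 min without overlap, whereas 14.1% of all features were. They were FKS1, GSC2, GAS1, CRH1, SVS1, SRL1 and MNN1. MNN1 had a mean of 22.2 TPM at 60 to 80 min and 37.9 TPM at 30 to 50 min, and SVS1 had 95.5 TPM and 162.8 TPM in these windows. Both had a log2 ratio of -0.77, and only 0.43% of the features had a lower one than SVS1 and 0.41% than MNN1. SRL1 had 754.5 TPM at 60 to 80 min, against 1122 TPM at 30 to 50 min (log2 ratio -0.57), and CRH1 430.7 TPM, against 618.7 TPM (-0.52). The median log2 ratio was -0.38 over the 10 genes and -0.02 over all features, or -0.36 and -0.01 after scaling. CHS1 went the other way, with 45.8 TPM at 60 to 80 min, against 32.9 TPM at 30 to 50 min, a log2 ratio of 0.48 that exceeded 97.4% of the features. It was the 1 gene of 10 that was higher without overlap, as were 8.45% of the features. After scaling, 8 of the 10 genes were lower without overlap, against 12.5% of the features, and CHS1 overlapped.

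In the next step, from 60 to 80 min to 110 to 130 min, part of this order turned round. SVS1 had 133.2 TPM at 110 to 130 min and 95.5 TPM at 60 to 80 min (log2 ratio 0.48), and MNN1 28.9 TPM and 22.2 TPM (0.38). The ratio was 0.31 for SRL1 and 0.19 for CRH1, while all features had a median of -0.13. CRH1 and SVS1 were higher without overlap, 2 of 10 genes against 7.94% of the features, and FKS1, GSC2 and UTR2 were lower, 3 of 10 against 38.1%. After scaling 4 genes were higher, against 21.1% of the features, and 2 lower, near the 16.3% of all features. GSC2 had 66.9 TPM at 110 to 130 min, against 95.8 TPM at 60 to 80 min, and CHS1 33.4 TPM against 45.8 TPM (log2 ratios -0.52 and -0.46). Late in the series changes were small. At 250 to 290 min, against 160 to 200 min, the ratio lay between -0.27 for CHS3 and 0.04 for SRL1. CRH1, with 340.6 TPM against 405.7 TPM, and UTR2, with 163.4 TPM against 184.6 TPM, were lower without overlap (2 of 10 genes, against 5.86% of the features, and after scaling 1 of 10, against 1.67%). No gene of the 10 was higher, against 0.545%.

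**Figure D5:**
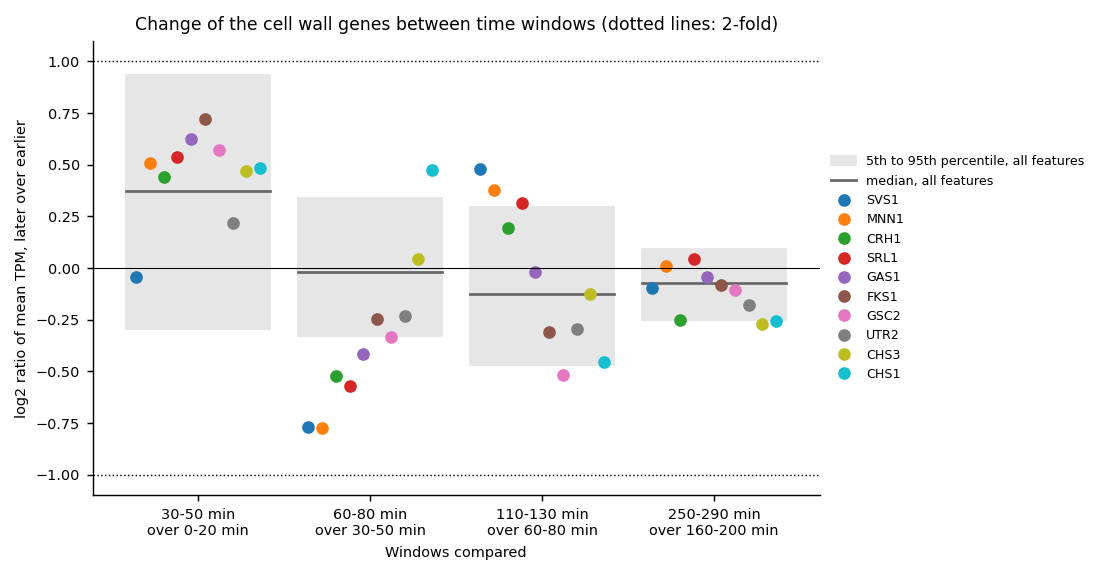
Log2 ratio of mean TPM of the later over the earlier window (vertical axis) for the 4 pairs of windows (horizontal axis), with 1 point per gene, a grey band from the 5th to the 95th percentile of the 5137 features and a line at their median. At 60 to 80 min over 30 to 50 min, SVS1 and MNN1 lie at -0.77, below the band, and CHS1 at 0.48, above it.

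The range within each cycle was compared with and without the libraries of 0 and 10 min. The highest over the lowest level of MNN1 was 4.33-fold from 0 to 70 min, 2.08-fold from 70 to 160 min and 1.27-fold from 160 to 290 min. For SVS1 these values were 7.42-fold, 1.79-fold and 1.43-fold, and for CHS1 3.07-fold, 1.97-fold and 1.51-fold. Without 0 and 10 min, the first cycle gave 3.398-fold for SVS1, 2.16-fold for MNN1, 1.74-fold for CRH1 and 1.399-fold for GAS1, still above the second. In the other 6 genes it was then below the second cycle, with 1.79-fold for CHS1, 1.60-fold against 1.64-fold for SRL1, 1.32-fold against 1.64-fold for FKS1, 1.35-fold against 1.56-fold for GSC2, 1.254-fold against 1.64-fold for CHS3 and 1.252-fold against 1.26-fold for UTR2. From the second to the third cycle the ratio was smaller in every gene except CRH1, with 1.30-fold in the third and 1.24-fold in the second. A local maximum of at least 0.32 prominence on the log2 scale was present in 8 of 10 genes in the first cycle (59.2% of all features), 7 in the second (71.0%) and 3 in the third (41.6%). Those of the third were FKS1 and MNN1 at 240 min and CHS1 at 180 min. In all, 9 of the 10 genes had a range of at least 2-fold over 0 to 290 min, but 47.4% of all features did as well. Over 30 to 290 min 5 of the 10 genes did, namely GSC2, CRH1, CHS1, SVS1 and MNN1, against 19.7% of the features.

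At the STRIPEs the 10 genes behaved unequally. At both 140 and 150 min, 7 of the 10 were higher than at both 130 and 160 min, close to the 68.2% of all features. CHS1 had 40.8 TPM at 140 min and 48.5 TPM at 150 min, against 28.5 TPM at 130 min and 28.03 TPM at 160 min, a log2 ratio of 0.66. MNN1 had a log2 ratio of 0.52 and FKS1 of 0.41, whereas the median of all features was 0.23. SRL1 had 973.6 TPM at 140 min and 1040 TPM at 150 min, against 1044 TPM at 130 min and 1140 TPM at 160 min, a log2 ratio of -0.12. At 100 min, 7 of 10 genes were above both 90 and 110 min (65.3% of all features), and FKS1, with 172.2 TPM at 100 min, against 120.4 TPM at 90 min and 116.2 TPM at 110 min, had the largest ratio of the 10 (log2 0.54, median of all features 0.14). After scaling, 4 of the 10 genes stayed higher at 140 and 150 min, namely FKS1, GSC2, CHS1 and MNN1, near the 29.4% of all features. The maxima of the second cycle of GSC2, GAS1 and MNN1 at 150 min, SVS1 at 140 min, and FKS1 and CHS3 at 100 and 150 min fall on such time points. CHS1 had its maximum at 80 min and a further one at 150 min.

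A second deposited table holds corrected scores, read as quantile normalized Z-scores of each feature. In it the highest time point was the same as in TPM for 7 of the 10 genes. It was 30 min instead of 50 min for GSC2, 10 min instead of 50 min for UTR2 and 160 min instead of 40 min for SRL1. The lowest time point was the same for GAS1 alone (1 of 10). SVS1 had a score of -0.20 at 0 min, where its TPM was lowest, and its lowest score was at 190 min. MNN1 had its lowest score at 90 min and CRH1 at 290 min. The order of the peaks was thus kept for SVS1 at 20 min, MNN1, CRH1 and FKS1 at 30 min and CHS1 at 80 min, while the low at 0 min was kept for GAS1 alone.

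Other wall genes were followed as lists by function. At 20 min against 0 min, 2 of 10 genes of glucan remodelling were at least 2-fold higher, GAS3 with 126.2 TPM at 20 min, against 44.0 TPM at 0 min, and the exoglucanase gene EXG1 with 463.3 TPM, against 220.6 TPM. GAS3 codes for a relative of GAS1 and had its highest level, 185.8 TPM, at 40 min, as GAS1 did. Of 15 genes of chitin synthesis and turnover, 1 was higher and 1 lower, the chitin deacetylase gene CDA1 and the endochitinase gene CTS1, which separates daughter cells. CTS1 had 272.4 TPM (0 min), 118.8 TPM (20 min) and 745.1 TPM (100 min), its highest level, after the CHS1 peak. Of 16 genes of the cell wall integrity list 1 was higher, SWI4, which codes for the DNA-binding part of SBF, with 14.04 TPM at 20 min and 5.63 TPM at 0 min. Of 9 genes of beta-1,6-glucan synthesis CWH41 and of 5 regulators of glucan synthase ROM1 were higher, and 0 of 19 genes of mannosylation. Among all features 8.76% were higher and 2.34% lower. After scaling, EXG1, CWH41 and ROM1 were no longer past 2-fold, with log2 ratios of 0.83, 0.77 and 0.83, and PIR3 was lower, with -1.21.

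Between windows few of these genes passed 2-fold without overlap. At 30 to 50 min, against 0 to 20 min, CHS2 had 52.9 TPM and 9.60 TPM (log2 ratio 2.46), and GAS3 180.4 TPM and 76.7 TPM (1.23), and ROM1 and CWP1, a wall mannoprotein gene, were also higher. After scaling CHS2 alone was still called, and GAS3, ROM1 and CWP1 had log2 ratios of 0.86, 0.67 and 0.71. At 110 to 130 min, against 60 to 80 min, CHS2 had 33.5 TPM and 79.5 TPM (-1.25), CTS1 504.7 TPM and 206.5 TPM (1.29) and PIR3, a wall protein gene, 205.7 TPM and 92.8 TPM (1.15). For the 19 genes of mannosylation the median log2 ratio at 60 to 80 min over 30 to 50 min was -0.25, and it was -0.19 for beta-1,6-glucan synthesis, -0.17 for the glucan synthase regulators, -0.08 for glucan remodelling, 0.03 for chitin synthesis and 0.01 for cell wall integrity, beside -0.02 for all features.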

How the data were processed

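Total RNA of 30 time points of the Yeast Cell Cycle 2 dataset was prepared by acid phenol extraction and a stranded mRNA kit and sequenced, with 1 library per time point. The authors aligned reads with STAR, quantified them with RSEM against R64 (per the labels; versions not given in the sources used here) and deposited TPM, which sum to 1000000 per library. The corrected scores deposited by the authors cover 6622 features and were read as Z-scores per feature with quantile normalization, from their values and the study's methods. No other columns were used. The time of each sample came from its label, and names from R64 by locus tag, which matched 6047 features.

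Levels, window ratios (mean TPM, log2, no pseudocount) and local maxima were computed with pandas 2.3.3, scipy 1.17.1 and numpy 2.4.6 under Python 3.11.15, and plots with matplotlib 3.10.9. Correlations used log2(TPM + 1). Median-of-ratios factors were taken over features above 0 TPM at every time point. Motifs were searched in R64 in the 600 bases before each coding start, a length set after the genome was at hand. The computations were tested on simulated data. No test between time points was possible with 1 library each. The genes named are the 10 genes, the 3 features most like each of them, and those of the landmark and wall lists. The genes and lists were chosen with earlier results of these data known. Of the a-cell markers, STE2, STE6, AGA2, MFA1 and MFA2 were read, and of the alpha-cell markers STE3, SAG1, MF(ALPHA)1 and MF(ALPHA)2. Alternatives were median-of-ratios scaling, quantile normalization, leaving out 100, 140 and 150 min, a mean of at least 1 TPM, a 1.5-fold threshold or prominence, a pseudocount of 1, all 30 time points or Spearman correlation for the lists, and CNCGAAA for the SCB. Those added after the results were seen left out 0 min, 0 and 10 min, or 0, 10 and 20 min, compared 20 with 0 min, shortened the window to 300 bases and scaled the STRIPE comparison.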

Additional observations from a re-analysis of the deposited data

How the results depend on the processing

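With 1 library per time point, values are limited by the single library, most of all at 0 min, and by the shift between libraries. No paired analysis was possible because there was 1 culture with 1 library per time point. The number of genes with a range of at least 2-fold, 9 as reported (47.4% of all features), was 5 without 0, 10 and 20 min (19.7%). It was 5 after quantile normalization, 7 after median-of-ratios scaling and 7 without 0 min. For these settings the share of all features was not computed, so the counts cannot be set against it. At a 1.5-fold threshold, 2 genes were higher at 30 to 50 min than at 0 to 20 min (22.2% of all features) and 2 were lower at 60 to 80 min than at 30 to 50 min (0.915%), where 0 had passed 2-fold. Genes with a local maximum in the second cycle, 7 as reported (71.0% of all features), were 4 without 100, 140 and 150 min. They were 4 with a prominence of 1.5-fold, which left 0 in the third cycle instead of 3 (41.6% of all features as reported). The shares of all features under these other settings were not computed. With all 30 time points, 6 of 10 genes kept their most similar landmark list. The SCB count of 5 became 9 with CNCGAAA and 1 within 300 bases. Genes above the flanking time points were 4 instead of 7 after scaling, both at 140 and 150 min (29.4% of all features) and at 100 min (29.6%). Among single values, 17 moved by more than 1.5-fold, all of them ranges: those of GAS1, SVS1, SRL1 and MNN1 without 0 min, that of CHS3 after median-of-ratios scaling, to 1.69-fold, and ranges within the first cycle without 0 min or without 0 and 10 min, a choice made after the results were seen. The other 213 did not. No gene was called in any window, and 4 uncalled log2 ratios changed sign, all after scaling: UTR2 at 30 to 50 over 0 to 20 min (-0.21, and 0.22 without scaling), GAS1 (0.12) and CHS3 (0.01) at 110 to 130 over 60 to 80 min, and GAS1 (0.03) at 250 to 290 over 160 to 200 min. The cause of these changes was not tested.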
